A study of Homo sapiens with 6 samples.

Results

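The MAP kinase cascade kinases are the protein kinases that pass a signal down the tiers of the mitogen-activated protein kinase pathway. Members were all genes whose annotated symbol reads MAP4K, MAP3K, MAP2K or MAPK followed by digits only. The rule found 38 genes on 68 probes, of 18852 genes with a symbol and 48803 probes on the array. They were 3 MAP4K, 18 MAP3K, 6 MAP2K and 11 MAPK genes. Kinases of the family with no probe under such a symbol in the annotation used are not analysed here.

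Total RNA was measured in IGROV-1, an established human ovarian carcinoma cell line, on 6 single-colour Illumina bead arrays. All cells grew in RPMI medium with fetal calf serum and glutamine. For 3 samples the treatment was 10 µM CpG-ODN over 24 h, and for the other 3 it was saline, over a time that the labels leave out. The labels do not name separate cultures, so the p-values reflect the spread from sample to sample, part of which may be technical. In such bulk RNA, fewer cells expressing a gene and less of its RNA per cell cannot be told apart.

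In this pathway each kinase phosphorylates and so activates the kinase of the next tier. MAP4K enzymes, relatives of yeast STE20, act on MAP3K enzymes, which receive most upstream signals. MAP3K enzymes activate the dual-specificity MAP2K enzymes, and these activate the MAPK enzymes by phosphorylating a threonine and a tyrosine in their activation loop. The MAPK tier holds the ERK branch of growth factor signalling, the JNK and p38 branches of stress and cytokine signalling, the ERK5 branch and a few atypical kinases. Toll-like receptors reach the JNK and p38 branches through MAP3K7. Phosphorylation was not measured here, so all values are transcript levels.

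CpG-ODN was ODN1826, a phosphorothioate oligonucleotide of 20 bases. It is shown because it is the agent that separates the groups, with its 2 CpG dinucleotides, the motif known to engage Toll-like receptor 9, in capitals:
ODN1826: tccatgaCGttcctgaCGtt

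Between 17142 and 18790 probes were detected on an array, with median intensities of 115.5 to 120.8. A probe counted as detected where its deposited detection p was under 0.05. Saline arrays correlated across genes at 0.990 to 0.992 and CpG-ODN arrays at 0.965 to 0.984, with CpG-ODN 1 and CpG-ODN 2 far apart. Of 11 epithelial and ovarian carcinoma markers 8 were detected on all 6 arrays, among them EPCAM, KRT8, PAX8 and FOLR1, while MSLN was detected on 1 array, WT1 on 2 and MUC16 on 5. Their summed background-corrected intensity ran from 21970 to 24930 in saline and from 21710 to 23590 in CpG-ODN. Of 4 leukocyte markers with a probe, PTPRC and CD3E were detected on no array and CD14 and CD68 on all, with sums of 838.8 to 967.4 in saline and 973.7 to 1125 in CpG-ODN. Of 3 endothelial markers CDH5 was detected on no array and PECAM1 and VWF on all, with sums of 676.7 to 727.3 and 471.3 to 628.2. Of 5 fibroblast markers COL1A2 and LUM were detected on no array and PDGFRA on all, with sums of 134.6 to 179.4 and 142.7 to 200.3. The leukocyte and endothelial sums did not overlap between the groups. In each the bright marker set the direction and the dim one went the other way: mean log2 intensities in saline and CpG-ODN were 9.64 and 9.91 for CD68 but 6.59 and 6.26 for CD14, and 9.37 and 8.96 for VWF but 6.01 and 6.37 for PECAM1. The part of these markers in the kinase values was not tested.

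Transcripts of every tier were detected in IGROV-1 cells. In saline 28 of the 38 genes had a probe detected on all 3 arrays, in CpG-ODN 27 had one, and 26 had a probe detected on all 6. All 3 MAP4K genes, 11 of 18 MAP3K, 5 of 6 MAP2K and 7 of 11 MAPK genes reached detection on all 6 arrays. At a stricter detection p under 0.01, 21 genes did so. By contrast 5 genes were detected on no array.

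**Figure D1:**
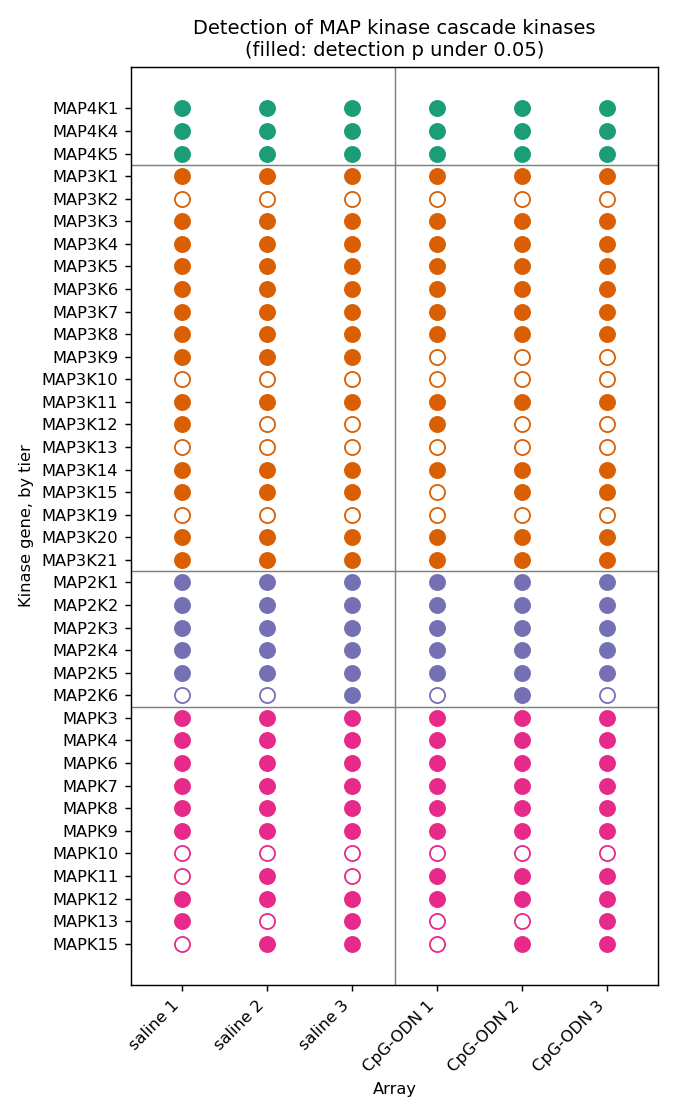
Detection of each kinase on each array, by tier. Rows are the 38 genes and columns the 6 arrays, and a filled circle means a detection p under 0.05 on the gene's tested probe or, for untested genes, its most often detected probe. MAP3K9 is filled on the 3 saline arrays only, and MAP3K2, MAP3K10, MAP3K13, MAP3K19 and MAPK10 are open throughout.

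The genes detected on no array were MAP3K2, an upstream kinase of the ERK5 branch, MAP3K10, a mixed lineage kinase, MAP3K13, a leucine zipper kinase, MAP3K19 and MAPK10. MAPK10 encodes JNK3, the JNK known mainly from brain, and its 5 probes had intensities of 78.0 to 130.8. MAP3K12, the dual leucine zipper kinase of neurons, was detected on 1 array of each group, as was MAP2K6, one of the p38 activators. A silent probe does not show a silent gene: 6 detected genes had 8 further probes that were detected on no array. MAP2K3, another p38 activator, was one of them, with 3 probes detected on no array, although its brightest probe read 1038 to 1462. For MAP4K4 a probe at 99.5 to 132.1 was never detected, while its other probes read 293.4 to 615.8. Levels of different probes depend on the probe, so no order of expression between paralogues is given.

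Expression of the cascade was compared between CpG-ODN and saline to ask whether the oligonucleotide changes the transcripts of these kinases in the tumour cells. A gene entered the test through its brightest probe, if that probe was detected on at least 3 of the 6 arrays, and 31 of the 38 members did. The 7 others were MAP3K2, MAP3K10, MAP3K12, MAP3K13, MAP3K19, MAP2K6 and MAPK10. Values below are normalized log2 intensities, and each fold change is the CpG-ODN mean less the saline mean of these, with the standard error (SE) of the limma fit over 3 arrays a group.

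No kinase of the cascade passed the test. With limma, 0 of the 31 tested members had an adjusted p under 0.05, where the share of all 11040 genes called was 0%, and every member had an adjusted p of 1. At an unadjusted p under 0.05 there were 2 members, against 3.58% of all genes. One was higher in CpG-ODN, MAPK11 (1.94% of all genes were higher at that p), and one was lower, MAP3K9 (1.64% were lower). On the brightest probe of each gene the 3 CpG-ODN arrays lay wholly on one side of the 3 saline arrays in the same 2 genes. These were 6.45% of members, against 9.35% of all genes. Groups that did not overlap were higher in CpG-ODN for 4.30% of all genes and lower for 5.05%.

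Of the 31 members 14 had a higher and 17 a lower mean in CpG-ODN. Their median log2 fold change was −0.05, against −0.01 for all genes tested. Without CpG-ODN 2 the median of the members turned to 0.02, without CpG-ODN 3 it was −0.02, without saline 3 it was −0.002 and without saline 1 it was −0.03. By tier the medians were −0.15 over 3 MAP4K, −0.14 over 13 MAP3K, −0.09 over 5 MAP2K and 0.09 over 10 MAPK genes. With 1 array left out the MAP4K median lay between −0.30 (without CpG-ODN 1) and 0.11 (without CpG-ODN 2), and the MAP3K median between −0.15 (without CpG-ODN 1) and −0.05 (without saline 2). The MAP2K median then lay between −0.33 (without CpG-ODN 2) and −0.06 (without saline 2), and the MAPK median between 0.02 (without saline 1) and 0.09 (without CpG-ODN 1). The MAPK median was −0.006 over the 6 genes that passed the stricter detection filter, and the MAP3K median was −0.02 over 18 genes with no filter. These 2 medians cover other sets of genes than the reported ones, and genes in both sets kept their fold changes. The fold change had a 95% interval within 2-fold either way for 28 members (90.3%, against 95.4% of all genes) and within 1.5-fold for 13 (41.9%, against 51.7%). The exceptions to the 2-fold limit were MAP3K8, MAP3K9 and MAP3K21.

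**Figure D2:**
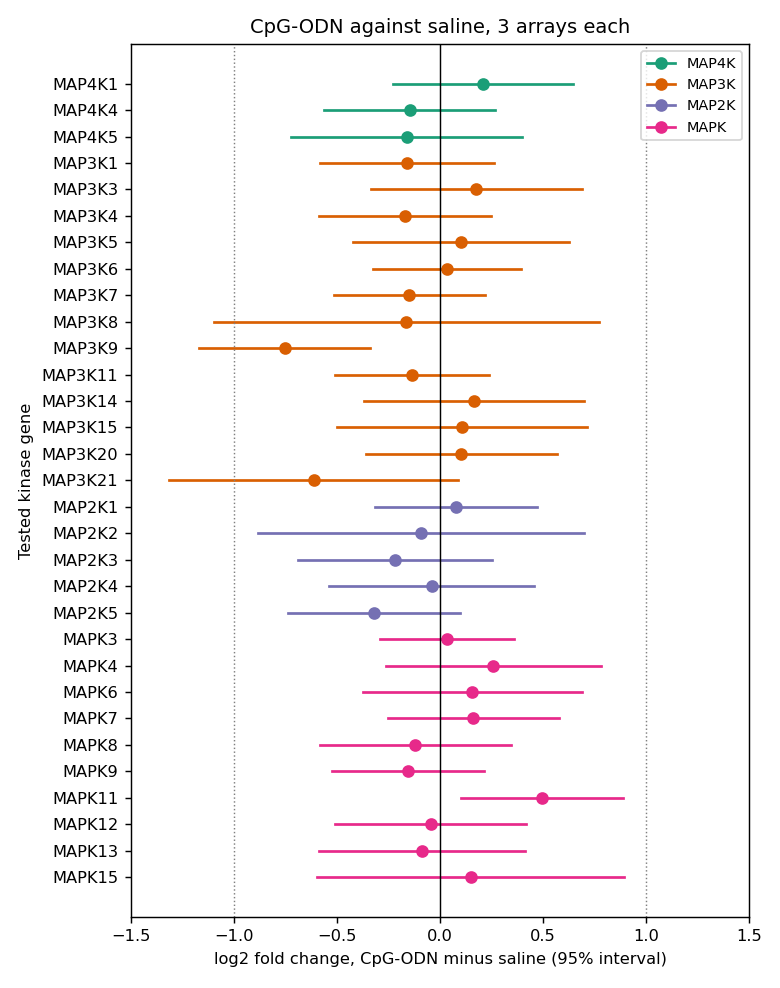
Log2 fold change, CpG-ODN minus saline, of the 31 tested kinases. Points are estimates over 3 arrays a group, bars are 95% intervals and dotted lines mark 2-fold. The intervals of MAP3K9 (−1.17 to −0.34) and MAPK11 (0.10 to 0.89) leave out 0, and those of the other 29 include it.

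At the top tier, MAP4K1, MAP4K4 and MAP4K5 were each detected on all 6 arrays. The MAP4K1 probe was dim, with detection p of 0.0132 to 0.0422, and the other probe of that gene was detected on no array. MAP4K1, or HPK1, a kinase best known from blood cells, read 5.99, 5.70 and 5.98 in saline and 6.24, 6.30 and 5.76 in CpG-ODN, given here and below in the order of replicates 1, 2 and 3. The groups overlapped through CpG-ODN 3, and its fold change was 0.21 ± 0.19 (SE), with 0.11 without CpG-ODN 2 and 0.38 without CpG-ODN 3. MAP4K4, a kinase linked to JNK signalling and cell migration, read 8.77, 8.52 and 8.69 in saline and 8.82, 8.28 and 8.43 in CpG-ODN. CpG-ODN 1 was the highest and CpG-ODN 2 the lowest of its arrays, and the fold change was −0.15 ± 0.18, with −0.03 without CpG-ODN 2 and −0.30 without CpG-ODN 1. MAP4K5, a close relative, had −0.16 ± 0.25 and turned to 0.12 without CpG-ODN 2. With array weights, which rest mainly on CpG-ODN 3, MAP4K1 turned to −0.04.

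The MAP3K tier held both members of the family furthest below saline. MAP3K9, a mixed lineage kinase upstream of JNK, read 5.86, 6.16 and 6.33 in saline and 5.52, 5.43 and 5.14 in CpG-ODN. Every CpG-ODN array lay below every saline array, and the probe reached detection on all 3 saline arrays and on 0 of the CpG-ODN arrays. Its fold change was −0.75 ± 0.18 (SE), with a limma unadjusted p of 0.00254 and an adjusted p of 1. With CpG-ODN taken at the lowest detected signal of each array, or at the value measured for MAP3K9 if greater, the means differed 1.42-fold. That value is no lower limit, since the 95% interval of −1.17 to −0.34 also holds smaller changes. The probe passed the detection filter through the saline arrays alone, so some difference was built into its selection. Before normalization it read 151.6, 166.2 and 178.0 in saline and 128.4, 128.0 and 117.0 in CpG-ODN. Without background correction its fold change was −0.35. Array weights made it the single member called (−0.95, adjusted p = 0.0272, with 76 genes called in all), and over all alternatives the adjusted p ran from 0.0272 to 1.

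MAP3K21, another mixed lineage kinase, read 7.72, 7.50 and 7.68 in saline and 7.53, 6.19 and 7.33 in CpG-ODN. The low value came from CpG-ODN 2, while CpG-ODN 1 lay within the saline range. Its fold change was −0.61 ± 0.31 (SE), its limma unadjusted p was 0.0798, and without CpG-ODN 2 the fold change was −0.20. A second probe gave −0.15 ± 0.28. The remaining mixed lineage kinase tested, MAP3K11, had −0.14 ± 0.17, with −0.26 without CpG-ODN 2 and −0.05 without CpG-ODN 1.

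Among the other MAP3K genes, MAP3K7 encodes TAK1, which carries signals from Toll-like and cytokine receptors to JNK, p38 and NF-kB. It was detected on all 6 arrays, read 9.59, 9.55 and 9.31 in saline and 9.38, 9.18 and 9.45 in CpG-ODN, and overlapped between the groups. Its fold change was −0.15 ± 0.16 (SE), and its second probe gave −0.16 ± 0.22. The brightest probe gave −0.07 without CpG-ODN 2 and −0.23 without saline 3. MAP3K14, or NIK, the kinase of the non-canonical NF-kB pathway, had 0.16 ± 0.24 and turned to −0.03 without saline 1. The MEKK genes MAP3K1, MAP3K3 and MAP3K4 had −0.16, 0.18 and −0.17, with SE of 0.19 to 0.23. With 1 array left out MAP3K1 lay between −0.33 (without CpG-ODN 1) and −0.05 (without CpG-ODN 2), and MAP3K4 between −0.33 (without saline 1) and −0.05 (without saline 2). The apoptosis signal-regulating kinases lay near saline, with MAP3K5 at 0.10 and MAP3K6 at 0.04. MAP3K15, of the same group, had 0.11 and was not detected on CpG-ODN 1. MAP3K3 turned to −0.003 without saline 1 and MAP3K5 to −0.17 without CpG-ODN 1. MAP3K6 turned to −0.02 without CpG-ODN 1 and −0.03 without saline 3, and MAP3K15 to −0.05 without CpG-ODN 2 and −0.08 without CpG-ODN 3.

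MAP3K8 is described for its spread and was chosen after its values were seen. It encodes TPL2, which links Toll-like receptors to the ERK branch in macrophages. It read 7.12, 6.92 and 6.81 in saline and 7.83, 5.79 and 6.74 in CpG-ODN. CpG-ODN 1 was the highest and CpG-ODN 2 the lowest of the 6 arrays. The CpG-ODN values had an SD of 1.02, against 0.15 in saline, and 0.172% of all genes tested had a wider spread in CpG-ODN. The CpG-ODN 2 value lay near the floor, with an intensity of 139.9 before normalization and a deposited detection p of 0.0369. The lowest detected signal of that array was 5.67. Background correction widens differences of such dim values, and the spread without it is not given. The fold change of MAP3K8, −0.16 ± 0.42 (SE), was −0.69 without CpG-ODN 1 and 0.33 without CpG-ODN 2.

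**Figure D3:**
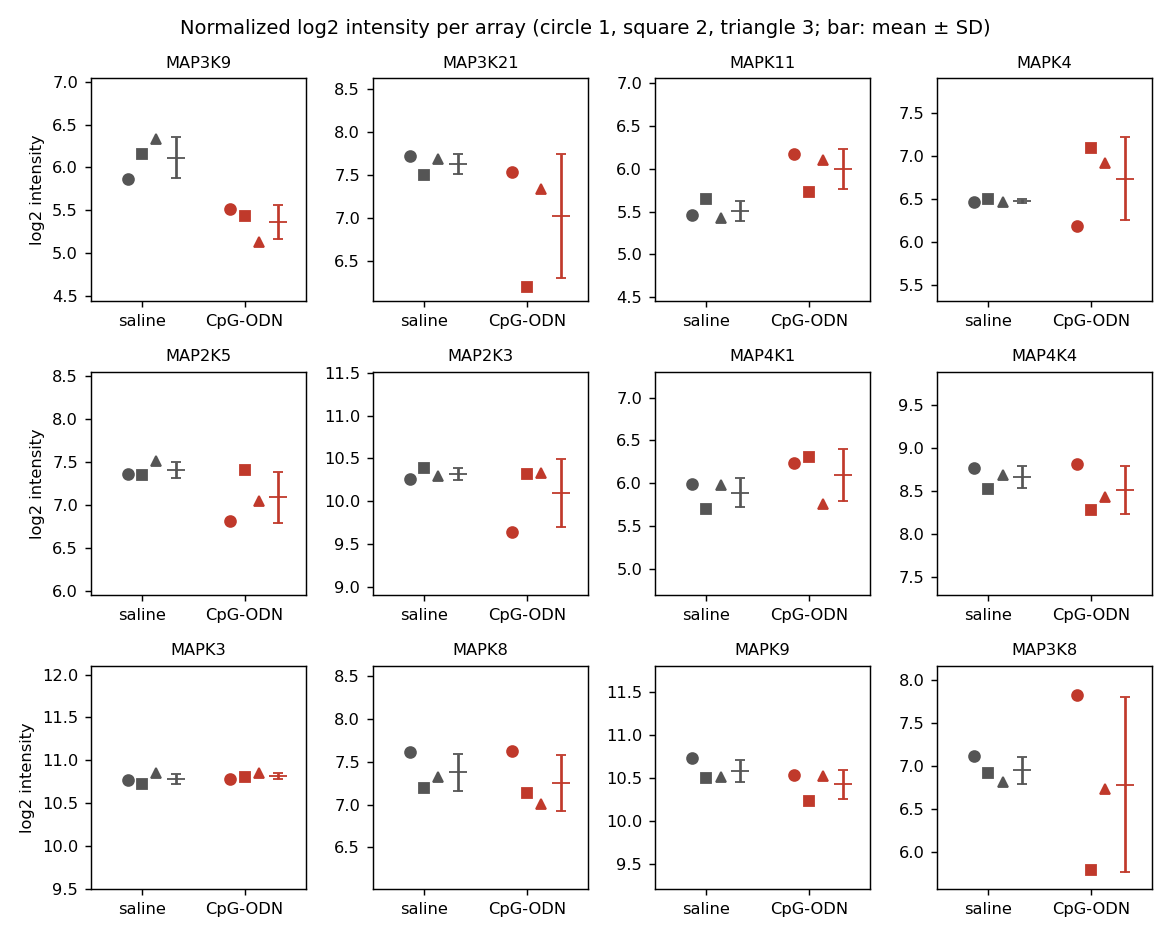
Normalized log2 intensity on each array for 12 kinases, on axes of equal height centred on each gene. Circles, squares and triangles are replicates 1, 2 and 3 of saline (grey) and CpG-ODN (red), and bars are the mean ± SD over 3 arrays. The groups separate for MAP3K9 and MAPK11, MAPK3 stays within 10.73 to 10.86, and MAP3K8 runs from 5.79 to 7.83 in CpG-ODN.

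In the MAP2K tier MAP2K1 to MAP2K5 were each detected on all 6 arrays. MAP2K1 and MAP2K2, the activators of the ERK branch, had fold changes of 0.08 ± 0.17 and −0.09 ± 0.35 (SE). MAP2K2 read 10.27, 10.68 and 10.89 in saline and 9.68, 11.23 and 10.65 in CpG-ODN. It was lowest on CpG-ODN 1 and highest on CpG-ODN 2, the reverse of MAP2K1 with its highest value on CpG-ODN 1 (10.54) and its lowest on CpG-ODN 2 (10.01). The fold change of MAP2K2 was accordingly 0.33 without CpG-ODN 1, 0.05 without saline 3 and −0.45 without CpG-ODN 2, and that of MAP2K1 turned to −0.06 without CpG-ODN 1.

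MAP2K5, the activator of ERK5, read 7.36, 7.35 and 7.52 in saline and 6.81, 7.40 and 7.05 in CpG-ODN. CpG-ODN 1 and CpG-ODN 3 lay below all saline arrays and CpG-ODN 2 among them. Its fold change was −0.32 ± 0.19 (SE; limma unadjusted p = 0.116), but its second probe gave 0.32 ± 0.17, with all CpG-ODN arrays above all saline arrays. The mean of both probes gave a value of 0.0006. Without CpG-ODN 1 the fold change of the brightest probe was −0.18. MAP2K3, which activates p38, read 10.26, 10.39 and 10.29 in saline and 9.64, 10.31 and 10.33 in CpG-ODN. Only CpG-ODN 1 was low, so that the fold change of −0.22 ± 0.21 became 0.01 without it. Its 2 other tested probes gave −0.25 ± 0.23 and −0.50 ± 0.18. On the latter probe, which was not detected on 1 of the CpG-ODN arrays, all CpG-ODN arrays lay below all saline arrays. MAP2K4, an activator of JNK, had −0.04 ± 0.22 and a sign that turned without CpG-ODN 2 (0.16) and without saline 1 (0.02).

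At the last tier MAPK3, or ERK1, had the narrowest range over the 6 arrays of all 31 tested members. It read 10.77, 10.73 and 10.85 in saline and 10.78, 10.81 and 10.86 in CpG-ODN. The groups overlapped, and the fold change was 0.03 ± 0.15 (SE), with a 95% interval of −0.29 to 0.36 and 0.05 ± 0.22 on its second probe. Its SD in CpG-ODN was 0.036, and 98.6% of all genes tested had a wider spread there. With saline or CpG-ODN arrays left out one at a time its fold change stayed between 0.01 and 0.07.

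The JNK genes showed no separation of the groups. MAPK8, or JNK1, read 7.62, 7.19 and 7.32 in saline and 7.63, 7.14 and 7.01 in CpG-ODN, with a fold change of −0.12 ± 0.21 (SE) and a 95% interval of −0.58 to 0.34. It was −0.31 without CpG-ODN 1 and turned to 0.0005 without saline 1 and to 0.004 without CpG-ODN 3. The other MAPK8 probe was detected on CpG-ODN 2 alone and was not tested. MAPK9, or JNK2, read 10.73, 10.50 and 10.52 in saline and 10.53, 10.23 and 10.52 in CpG-ODN. Its fold change was −0.15 ± 0.16, with an interval of −0.52 to 0.21, and its second probe lay on the other side of 0 at 0.04 ± 0.21. The brightest probe gave −0.06 without CpG-ODN 2 and −0.21 without CpG-ODN 1.

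MAPK11, or p38 beta, was the member furthest above saline. It read 5.46, 5.65 and 5.42 in saline and 6.17, 5.73 and 6.10 in CpG-ODN. All CpG-ODN arrays lay above all saline arrays, although CpG-ODN 2 exceeded saline 2 by little. The fold change was 0.49 ± 0.17 (SE), with a limma unadjusted p of 0.0192, an adjusted p of 1 and a 95% interval of 0.10 to 0.89. The probe was dim and reached detection on all 3 CpG-ODN arrays but on 1 of the saline arrays, so that it too passed the detection filter mainly through one group. Its intensities before normalization were 132.5, 141.8 and 132.1 in saline and 161.6, 137.9 and 160.2 in CpG-ODN. Without background correction the fold change was 0.22. Its second probe was detected on no array. Over the alternatives that tested it, its adjusted p ran from 0.0572 to 1, and the stricter detection filter left it out.

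The other p38 genes that were tested, MAPK12 and MAPK13, overlapped between the groups. MAPK12 had −0.05 ± 0.20 (SE), and MAPK13, above background on 2 saline arrays and 1 CpG-ODN array, had −0.09 ± 0.22. MAPK12 turned to 0.12 without CpG-ODN 1 and 0.01 without saline 3, and MAPK13 to 0.05 without CpG-ODN 2 and 0.04 without saline 3. Of the remaining genes, MAPK7, which encodes ERK5, had 0.16 ± 0.18, with 0.25 ± 0.26 on its second probe and 0.004 without saline 3. The atypical kinase gene MAPK4 read 6.46, 6.50 and 6.47 in saline and 6.19, 7.10 and 6.92 in CpG-ODN. CpG-ODN 2 and CpG-ODN 3 lay above the narrow saline range and CpG-ODN 1 below it. Its fold change was 0.26 ± 0.23, with 0.37 ± 0.21 on its second probe and 0.53 without CpG-ODN 1, against 0.08 without CpG-ODN 2 and 0.17 without CpG-ODN 3. MAPK6, or ERK3, and MAPK15 had 0.16 ± 0.24 and 0.15 ± 0.33. MAPK6 turned to −0.002 without CpG-ODN 1, and MAPK15, detected on 2 arrays of each group, turned to −0.25 without CpG-ODN 2 and to −0.02 without saline 1.

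For 13 members more than 1 probe passed the filter. The fold changes of a gene's probes had opposite signs in 3 members, or 23.1%, against 46.2% of all genes with several probes. These were MAP2K5, MAPK9 and MAP3K20. MAP3K20, or ZAK, is a kinase that senses stalled ribosomes, and its 3 probes gave 0.10 ± 0.21, −0.42 ± 0.19 and 0.23 ± 0.23 (SE). The last 2 are annotated to 1 and the same transcript. The brightest probe turned to −0.08 without CpG-ODN 1 and to −0.002 without saline 3. In the other 10 members the probes lay on the same side of 0.

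**Figure D4:**
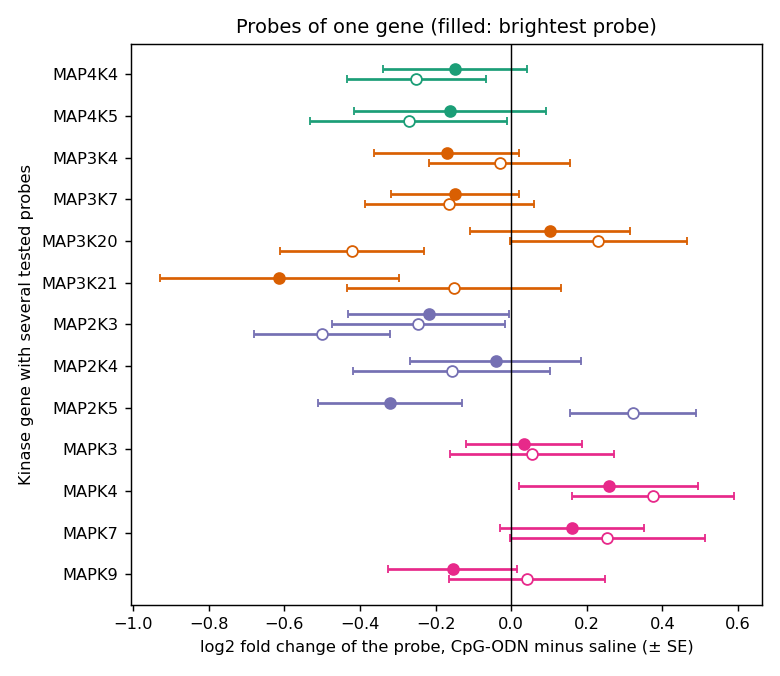
Log2 fold change (CpG-ODN minus saline) of each tested probe in the 13 kinase genes with several. Filled circles are the brightest probes, open circles the others, and bars are ± SE. MAP2K5 shows −0.32 and 0.32, and MAP3K20 spreads from −0.42 to 0.23.

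The CpG-ODN arrays differed among themselves in most kinases. The SD over arrays was wider in CpG-ODN than in saline for 23 of 31 members (74.2%), and for 74.9% of all genes. The median SD of the members was 0.32 in CpG-ODN and 0.14 in saline, against 0.26 and 0.15 over all genes. In 8 members CpG-ODN 1 was the highest and CpG-ODN 2 the lowest of the 6 arrays: MAP4K4, MAP4K5, MAP3K1, MAP3K5, MAP3K8, MAP2K1, MAP2K4 and MAPK6. In 5 members the order was the reverse: MAP3K11, MAP2K2, MAPK4, MAPK12 and MAPK15. Together these were 41.9% of members, against 24.6% of all genes, which is a description of these 6 arrays and was not tested. CpG-ODN 1 and CpG-ODN 2 lay on opposite sides of the saline mean in 54.8% of members and 55.4% of all genes. CpG-ODN 3, the remaining array, was above the saline mean in 13 of 31 members (41.9%), against 49.5% of all genes. CpG-ODN 2 was above that mean in 13 members too (41.9%) and saline 3 in 12 (38.7%), against 49% and 48.9% of all genes. Saline 1, saline 2 and CpG-ODN 1 were above it in 51.6%, 61.3% and 51.6% of members.

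**Figure D5:**
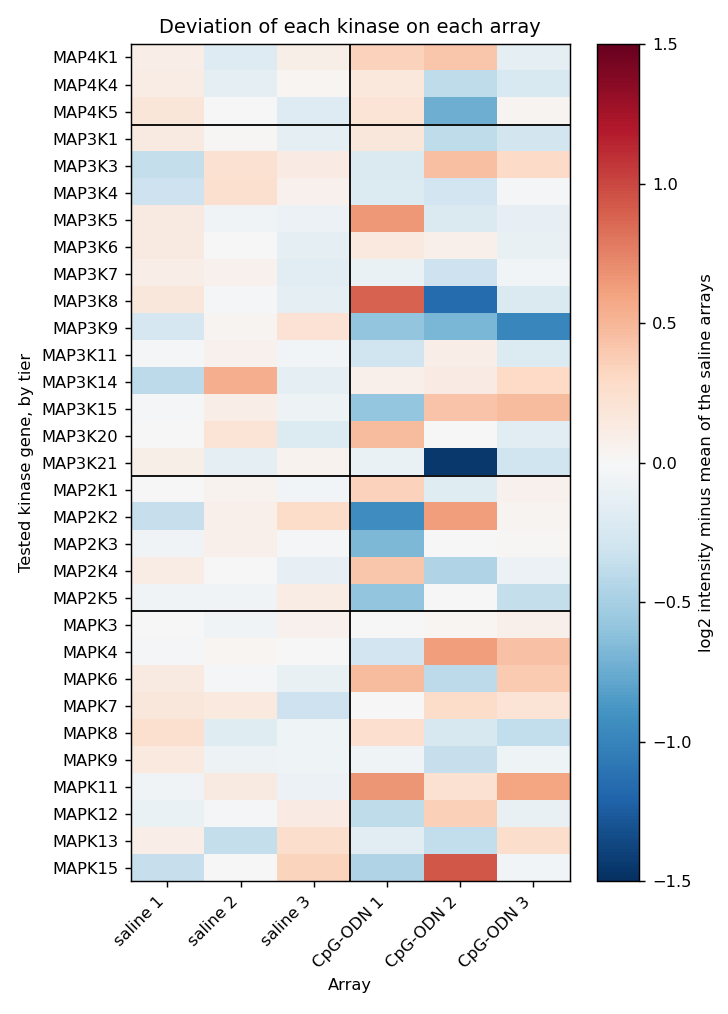
Log2 intensity of each tested kinase on each array, minus the mean of the 3 saline arrays. Rows are the 31 tested genes by tier, red is above and blue below the saline mean. Within the CpG-ODN arrays replicates 1 and 2 carry opposite colours in 54.8% of the genes, as in MAP3K8 and MAP2K2, while MAP3K9 is below and MAPK11 above on all 3.

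Genes that work beside the cascade did not pass either. In 5 lists 61 further genes were tested and 0 passed in limma, while 0 higher and 3 lower ones had an unadjusted p under 0.05, where 1.94% of all genes were higher and 1.64% lower. Of 11 genes of the RAS, RAF and adaptor list 6 had a higher and 5 a lower mean, with a median of 0.08. That median was 0.007 without saline 1, 0.02 with the mean over probes and −0.0004 with array weights. The exchange factor gene SOS1 had −0.36 ± 0.15 (SE; limma unadjusted p = 0.0429), with all CpG-ODN arrays below all saline arrays, and the RAS inhibitor gene NF1 had −0.33 ± 0.20. Of 11 tested relatives of STE20 and MAP3K-like kinases 5 had a higher and 6 a lower mean, with a median of −0.01, which lay above 0 when saline 1 (0.05), saline 2 (0.008), CpG-ODN 2 (0.05) or CpG-ODN 3 (0.02) was left out. STK25 and the Hippo pathway kinase gene STK4 came first there, at −0.23 ± 0.17 and −0.20 ± 0.15, and for STK4 the CpG-ODN arrays lay below the saline arrays. Scaffolds, adaptors and regulators had a median of 0.0006 over 19 genes, 10 above and 9 below saline, led by LAMTOR2 at 0.27 ± 0.19 and LAMTOR3 at 0.19 ± 0.17, both subunits of the Ragulator complex of lysosomes. That median had no steady sign, with 0.07 without CpG-ODN 2, −0.03 without saline 3 and −0.05 with scaling to equal medians.

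Downstream, the median of 10 kinases activated by MAP kinases was −0.13, and 6 had a lower mean in CpG-ODN. It was −0.07 without saline 2 and −0.09 without CpG-ODN 1. RPS6KA3, or RSK2, a target of ERK, read 7.41, 7.44 and 7.35 in saline and 7.18, 6.35 and 6.87 in CpG-ODN. All CpG-ODN arrays lay below all saline arrays, most of all CpG-ODN 2, and the fold change was −0.60 ± 0.21 (SE; limma unadjusted p = 0.0203, adjusted p = 1). Its other tested probes gave −0.52 and −0.54. MAPKAPK2, a target of p38, had −0.24 ± 0.18, and 0.61 on its other probe. Transcription factor substrates had a median of 0.003 over 10 genes, 5 on each side, with −0.09 without CpG-ODN 1 and 0.06 without CpG-ODN 2. ATF2, a substrate of JNK and p38, had −0.53 ± 0.21 (limma unadjusted p = 0.0311) and overlapped between the groups, and CREB1 had −0.24 ± 0.20, with 0.14 to 0.35 on its other probes.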

How the data were processed

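Intensities and detection p-values came from a non-normalized table. The deposited probe intensity was on a linear scale, non-normalized per the file headers, and its values show that no background had been taken off. Each deposited intensity had a deposited detection p-value, in steps of 0.00132. A second deposited table held intensities the authors had normalized, by an unnamed method. The submitters' processing notes name BeadStudio.

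Intensities were background-corrected and quantile normalized with neqc of limma 3.58.1 in R 4.3.3 (offset 16). The offset draws fold changes of dim probes towards 0, while background correction widens them. MAP3K9 had −0.75 in the reported fit against −0.35 without that correction, and MAPK11 had 0.49 against 0.22. Probes detected (p under 0.05) on at least 3 of 6 arrays were kept, 17950 of 48803. Of all probes 28098 had 1 symbol, 13 several and 20692 none. Symbols were checked by gene number against RefSeq names of GRCh38.p14 (28059 matched, 0 changed). No build is named for the arrays, so no coordinates are given. The brightest kept probe stood for a gene, giving 11040 genes. The groups were compared by lmFit and eBayes with group as sole term and Benjamini-Hochberg adjustment, other probes of a gene in a fit over all kept probes. The test was checked on simulated data that gave both groups of a gene the same SD. The measured SD was wider in CpG-ODN for 74.9% of genes, so that check does not show how small a change would be found here. Probe sequences were not used, so cross-hybridization between paralogues was not checked. The number of arrays limits the precision.

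The members, the pathway and marker lists and the tests were chosen with earlier results of these data known. Values on every array are given for the 2 tested members of each tier with the smallest unadjusted p, for members detected on all arrays of 1 group and none of the other, and for ERK and JNK genes fixed by name. Members whose tested probes differ in sign are named too, as are the 2 genes of each list with the smallest unadjusted p. Array values of MAP3K7, MAP3K8, MAP2K2 and RPS6KA3, and 2 of MAP2K1, were added after they were seen. Not every gene fixed by name is reported here. Arrays sharing a replicate number were not taken as pairs, since nothing in the labels says that the number marks a shared culture or day. Their deviations correlated at 0.370, 0.0457 and 0.110. Arrays of unlike number were not correlated for comparison, so these values do not decide whether there were pairs. Alternatives changed the scaling, background correction, offset, detection filter, probe rule, weights, block and arrays used.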

Additional observations from a re-analysis of the deposited data

How the results depend on the processing

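The count of called genes was 0, over all genes and over the kinases, in each alternative run except array weights. These called 76 of 11040 genes and 1 of 31 kinases, MAP3K9, whose probe passed the detection filter through the saline arrays alone. CpG-ODN 3 weighed 5.25 there, CpG-ODN 1 only 0.244 and CpG-ODN 2 only 0.335. At an unadjusted p under 0.05 the array weights gave 8 of 31 kinases, against 17.1% of all genes, where the reported fit gave 2 and 3.58%. Without CpG-ODN 1 there were 6 kinases against 9.39%, and without CpG-ODN 2 there were 4 against 4.40%, but without CpG-ODN 3 there was 1 against 5.36%. With the stricter detection filter there were 0 of 21 against 3.26%. That filter left out MAP3K9 and MAPK11, the 2 kinases of the reported fit, so its count is not a weaker result on the same genes. The median of the kinases was −0.092 with the stricter detection filter, over 21 kinases, and with 1 array left out it lay between −0.054 (CpG-ODN 1 left out) and 0.017 (CpG-ODN 2 left out). The cause was not tested, beyond the smaller number of genes or arrays. With the replicate block the median was −0.046 and 0 genes were called. At an unadjusted p under 0.05 that fit gave 3 kinases, against 4.86% of all genes. Of 486 values of single kinases under the alternatives 452 kept their sign, 34 changed it and 1 passed the threshold. None that changed sign (0 of 34) had an adjusted p under 0.05. With array weights MAP2K2 turned to 0.021, MAP3K5 to −0.089, MAP3K6 to −0.092, MAP3K20 to −0.18, MAP4K1 to −0.042 and MAPK13 to 0.29, and with the mean over probes MAP2K5 turned to 0.00055 and MAP3K20 to −0.029. With 1 array left out, fold changes spanned 0 in several kinases and ran for MAP2K1 from −0.057 to 0.20, for MAP2K2 from −0.45 to 0.33, for MAP2K3 from −0.34 to 0.0092, for MAP2K4 from −0.27 to 0.16 and for MAP3K14 from −0.031 to 0.43. They ran for MAP3K15 from −0.077 to 0.45, for MAP3K20 from −0.083 to 0.23, for MAP3K3 from −0.0031 to 0.37, for MAP3K5 from −0.17 to 0.26 and for MAP3K6 from −0.034 to 0.11. The ranges were, for MAP3K8, from −0.69 to 0.33, for MAP4K5 from −0.35 to 0.12, for MAPK12 from −0.25 to 0.12, for MAPK13 from −0.27 to 0.052 and for MAPK15 from −0.25 to 0.45. For MAPK6 the range was −0.0022 to 0.43 and for MAPK8 −0.31 to 0.0043. The dim probes of MAP3K9 and MAPK11 gave −0.35 and 0.22 without background correction and −0.46 and 0.30 with an offset of 50.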
